A study of Saccharomyces cerevisiae BY4741 with 2 samples.

Results

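DEAD-box RNA helicases are enzymes that use ATP to open short RNA duplexes and to remodel complexes of RNA and protein, and they are named for an Asp-Glu-Ala-Asp motif in their ATPase core. Budding yeast uses different members of the family for different steps in the life of an RNA, among them ribosome assembly, the start of translation, and the packaging of mRNA. Dbp2, the yeast relative of human DDX5 (p68), acts at transcribed genes and promotes the loading of mRNA-binding proteins onto new transcripts, and it is the member that was deleted here. The results below concern DBP2 and 9 other genes of the family (DBP6, DBP7, SPB4, RRP3, DBP8, HCA4, TIF1, TIF2 and DBP1), chosen by name. These 10 genes are among 2809 distinct gene names in the deposited files.

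RNA left after ribosomal depletion was sequenced with strand kept for 2 MATa strains of Saccharomyces cerevisiae, grown at 30 °C to mid-log phase in rich medium with 2% glucose. The wild-type strain carried the alleles his3Δ1, leu2Δ0, met15Δ0 and ura3Δ0. In the dbp2Δ strain DBP2 was replaced (dbp2::KanMx), and the other alleles given are ura3Δ0, leu2Δ0, his3Δ0, TRP1, met- and lysΔ, so that the strains share the leu2 and ura3 deletions but differ at the lysine locus and in the his3 allele as well as at DBP2. A difference between the strains cannot be told apart from an effect of these other alleles. The labels list 2 replicates a strain, but each strain has 1 deposited value per row, so there is no estimate of spread, no test was possible, and none of the differences below has a replicate check.

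Values are FPKM, in which fragment counts are divided by transcript length and library size, and levels of different genes are compared on that scale throughout. Ratios are plain ratios of these values, and log2 ratios are of (dbp2Δ + 1) over (wild type + 1), with a pseudocount of 1 that shrinks the ratios of low genes. A gene was counted as past 2-fold when this log2 ratio reached 1 in size. All 9 genes other than DBP2 stand on a single row and passed the filter on low values, which left 2211 genes in all. Of these genes 8.86% were past 2-fold upward in dbp2Δ and 10.9% downward. A scaling that gives both strains the same protein-coding total, called coding-sum scaling below, multiplied the dbp2Δ values by 1.38 and moved the median log2 ratio of all genes from -0.08 to 0.38. It also changed these shares to 19.9% and 4.57%, and the helicases whose direction depends on it are named where they occur.

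The 10 genes share the motif that gives the family its name, with an exception. The Asp-Glu-Ala-Asp motif was found once in the coding sequence of 9 of the genes, whereas DBP7 reads Asp-Glu-Gly-Asp at the corresponding place. The motif is rare, since 65 of 6008 nuclear coding genes (1.08%) encode these residues in a row. The DNA of the reference strain over the motif is printed here, from the RefSeq R64 assembly to which the build name sacCer3 refers, because it shows how alike distant members are over the ATPase core. Capitals mark the 4 codons of the motif and lower case the 9 bases on each side, read on the coding strand.
DBP2, chrXIV:414428-414457, + strand: ctggttcttGATGAAGCTGATagaatgtta
DBP6, chrXIV:696606-696635, + strand: ttgattatcGATGAGGCTGATcgtcttttg
DBP7, chrXI:486434-486463, - strand: atcgtattgGATGAAGGAGATaagttaatg
SPB4, chrVI:146401-146430, - strand: gtagttatgGATGAAGCAGACagattgttg
RRP3, chrVIII:228327-228356, - strand: ttggttatgGATGAAGCTGATagattatta
DBP8, chrVIII:442634-442663, + strand: ttagttctaGATGAAGCCGATattttgcta
HCA4, chrX:384407-384436, + strand: cttgttcttGACGAAGCTGATagatgttta
TIF1, chrXI:555485-555514, + strand: ttcatcttaGATGAAGCTGATgaaatgttg
TIF2, chrX:154164-154193, - strand: ttcatcttaGATGAAGCTGATgaaatgttg
DBP1, chrXVI:325293-325322, - strand: ctggtattgGATGAGGCTGATagaatgcta
DBP2, RRP3, TIF1 and TIF2 spell the motif with the same 12 bases, DBP6 and DBP1 share another spelling, and the other 4 genes differ from these and from each other. The proteins range from 395 codons for TIF1 and TIF2 to 770 codons for HCA4. The Ser-Ala-Thr motif, a later element of the helicase core, was first found 31 to 44 residues after the start of the family motif in 9 of the genes and was not found as these residues in DBP8.

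DBP2, the deleted gene, was the one most changed among these helicases. It stands on 3 rows, and no source used here says what distinguishes the rows. The highest row was 1539.7 FPKM for wild type against 2.52 FPKM for dbp2Δ, and the middle row was 348 FPKM against 3.70 FPKM. The remaining row was 5.62 FPKM against 3.33 FPKM. The highest and the middle row therefore dropped 611-fold and 94.2-fold, whereas the lowest row stood near the deletion level in wild type already and was 1.69-fold lower. In wild type the rows spread over 274-fold, and in dbp2Δ over 1.47-fold. Wild-type spread of this size was the widest among 28 names on 3 or more rows with all rows above 0, whose median was 3.10-fold. The 3 rows added up to 1893.7 FPKM for wild type and to 9.55 FPKM for dbp2Δ.

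The residual dbp2Δ values were low but above 0. For comparison LEU2, whose deletion both strains carry, was listed at 1.69 FPKM for wild type and at 0.54 FPKM for dbp2Δ. Of the genes compared, 6.15% to 8.01% stood at or below the DBP2 rows in dbp2Δ. In wild type the highest DBP2 row was above 95.3% of the genes compared and 2.27 times the next helicase, TIF1. The log2 ratios of the upper rows, -8.77 and -6.22, lie below those of all 2211 genes compared.

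**Figure D1:**
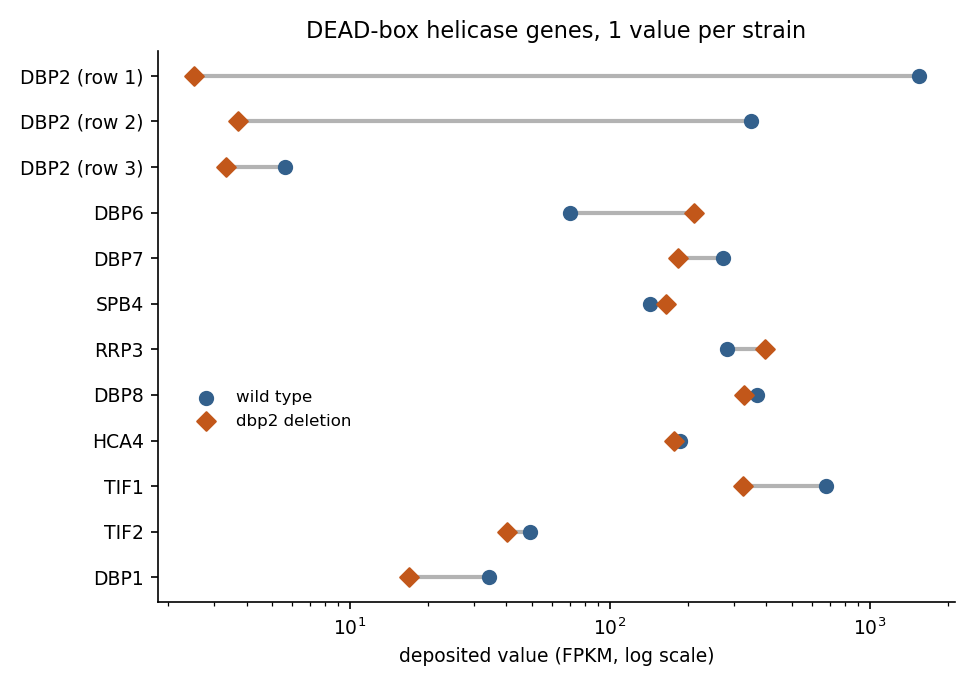
Deposited FPKM (log scale) of the 10 genes, with each DBP2 row apart; circles are wild type, diamonds dbp2Δ, 1 value each, and the grey line joins them. The upper DBP2 rows fall from 1539.7 and 348 FPKM to 2.52 and 3.70 FPKM, DBP6 rises from 70.0 to 211 FPKM, and most other pairs lie close together.

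DBP2 is the single gene of the 10 with an annotated intron. It lies on chromosome XIV at chrXIV:413639-416281 on the + strand, with 1273 coding bases in exon 1 and 368 coding bases in exon 2. The intron of 1002 bases (chrXIV:414912-415913) is the longest of 281 coding-sequence introns in the nuclear annotation, whose median is 141 bases, and it sits late in the gene, behind the family motif. In yeast this intron is known for its part in the negative feedback of Dbp2 on its own expression. Its splice signals are shown because no other of these helicase genes has them. Capitals mark the first 6 bases of the intron, the branch site and the last 3 bases.
Start of the intron, chrXIV:414900-414929: ccagaggtatcgGTATGTtaaaattttctc
Branch site, chrXIV:415855-415881: cgaaccaaatTACTAACagtatgcttt
End of the intron, chrXIV:415896-415925: acttctttattttttCAGatgtcaaaggta
The first 6 bases of the DBP2 intron are those of 73.0% of the introns, and the 7 branch-site letters occur in 82.6% of them, on the coding strand. The DBP2 intron holds the branch-site letters once, 42 bases before its end.

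The genes beside DBP2 all had values far above its dbp2Δ level in both strains. RPC19, which encodes a subunit shared by RNA polymerases I and III, lies 439 bp upstream on the same strand and was listed at 126 FPKM for wild type and 234 FPKM for dbp2Δ, a 1.85-fold higher value. CYB5 (cytochrome b5), 658 bp downstream on the other strand, was 164 FPKM against 103 FPKM. Neither gene next to DBP2 reached 2-fold on the log2 scale as deposited. RPC19 did with coding-sum scaling, at a log2 ratio of 1.35, where 19.9% of all genes were past 2-fold upward. One gene farther out, YNL115C was 121 FPKM against 124 FPKM and NOP15, a ribosome biogenesis gene, was 296 FPKM against 487 FPKM. Of the 4 neighbours 3 thus had higher values in dbp2Δ, by 1.02-fold to 1.85-fold, and CYB5 a lower one. NOP15 was also past 2-fold with coding-sum scaling, at a log2 ratio of 1.18.

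**Figure D2:**
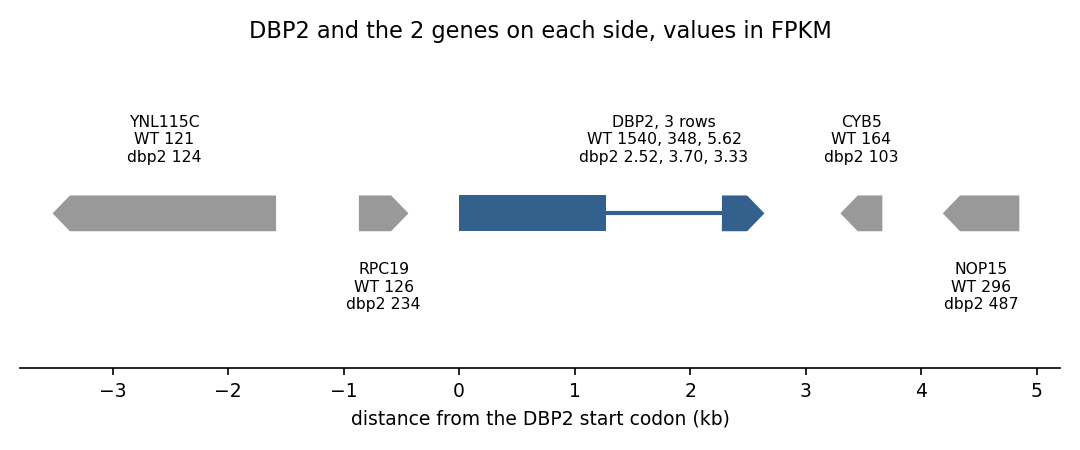
Map of DBP2 (blue, boxes for coding exons and a line for the intron) and the 2 annotated coding genes on each side (grey arrows in the direction of transcription), against distance from the DBP2 start codon in kb, with the FPKM of each strain. The values fall at DBP2 from 1539.7 to 2.52 FPKM for the highest row, while RPC19 beside it is 126 FPKM and 234 FPKM.

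Among the other 9 helicases, DBP6 had the largest difference. DBP6 (YNR038W, chrXIV:695595-697484, + strand) encodes an essential helicase of early precursors of the large (60S) ribosomal subunit. It was listed at 70.0 FPKM for wild type and 211 FPKM for dbp2Δ. This is a 3.01-fold higher value, with a log2 ratio of 1.58, and it placed DBP6 at rank 66 from the top of 2211 genes. In wild type DBP6 was the third lowest of the 9 genes, above 44.6% of all genes compared or level with them, and in dbp2Δ it was the fourth highest (76.2%). The genes nearest to DBP6 on the plane of both log2 levels, over these 2 values, were the transporter gene PDR12 (64.9 FPKM and 222 FPKM), FLC2 (74.2 FPKM and 179 FPKM) and YOR020W-A (83.0 FPKM and 190 FPKM). Their distances were 0.13, 0.25 and 0.29 on the log2 scale.

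The genes on either side of DBP6 did not have its ratio. RSM19, for a protein of the small mitochondrial ribosomal subunit, starts 267 bp upstream and is transcribed away from DBP6. It was 457 FPKM for wild type and 161 FPKM for dbp2Δ, 2.84-fold lower, so that this divergent pair had opposite ratios. ZRG17, a zinc transport gene, ends 129 bp behind DBP6 on the other strand and was 19.4 FPKM against 28.9 FPKM. Whether strand was used in counting is not stated in the sources at hand. With coding-sum scaling the log2 ratio was 2.04 for DBP6 and -1.03 for RSM19.

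The other large-subunit helicases did not follow DBP6. SPB4 (YFL002C, chrVI:145114-146934, - strand), which acts on large-subunit precursors, was 143 FPKM for wild type and 165 FPKM for dbp2Δ, 1.15-fold higher. DBP7 (YKR024C, chrXI:485144-487372, - strand), a helicase of large-subunit assembly that cells can live without, was 271 FPKM against 184 FPKM, 1.48-fold lower. The log2 ratios of the 3 large-subunit helicases thus ran from -0.56 to 1.58. DBP7 had the higher level in wild type and DBP6 in dbp2Δ. With coding-sum scaling DBP7 stood at 254 FPKM in dbp2Δ, 1.07-fold below wild type.

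The small-subunit helicases stayed within 1.40-fold of wild type as deposited. RRP3 (YHR065C, chrVIII:227532-229037, - strand), needed for maturation of the small-subunit rRNA, was 282 FPKM for wild type and 394 FPKM for dbp2Δ. DBP8 (YHR169W, chrVIII:442181-443476, + strand), which works with its cofactor Esf2 in small-subunit assembly, was 368 FPKM against 329 FPKM. HCA4 (YJL033W, chrX:383837-386149, + strand), also called DBP4, which is linked to the release of the U14 small nucleolar RNA from pre-ribosomes, was 186 FPKM against 177 FPKM. DBP8 and HCA4 were therefore 1.12-fold and 1.05-fold lower, and both turned to higher values, 1.24-fold and 1.32-fold, with coding-sum scaling. RRP3 had the largest ratio of these 3 genes and stayed under 2-fold under both scalings, at log2 ratios of 0.48 and 0.95.

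Over the 6 ribosome assembly helicases, 3 were higher and 3 lower in dbp2Δ, 1 (DBP6) was past 2-fold upward and 0 downward, against 8.86% and 10.9% of all genes, with a median log2 ratio of 0.07 beside -0.08 for all genes. With coding-sum scaling 5 were higher and 1 (DBP7) lower, with a median of 0.53 beside 0.38 for all genes. Ribosome biogenesis genes of yeast often carry the PAC element upstream, whose core GATGAG was searched on both strands in the 300 bases before each annotated coding start. All 6 of these genes hold the core, as do DBP2 and TIF2, but not TIF1 and DBP1, against 19.1% of 6007 windows of the same length. The matches of the 6 genes are shown to compare their number and surroundings, with the core or its reverse complement in capitals, read on the strand of the gene.
DBP6, chrXIV:695538-695551, + strand: tggcGATGAGatgt
DBP7, chrXI:487502-487515, - strand: ttgcGATGAGctta
SPB4, chrVI:146992-147005, - strand: tcaaGATGAGctga
RRP3, chrVIII:229229-229247, - strand: tcgcGATGAGATGAGcttc
DBP8, chrVIII:442040-442053, + strand: ttacCTCATCgcgg
HCA4, chrX:383739-383767, + strand: taagCTCATCTCATCTCATCTCATCccat
HCA4 has 4 overlapping copies and RRP3 has 2, and both DBP6, with the largest ratio, and DBP7, with the smallest, have 1. The copies start between 53 bases (DBP6) and 206 bases (RRP3) before the coding start. A match describes these letters and is not a shown binding site. A further element of such genes, the RRPE, searched as AAATTTTC on both strands, was found upstream of HCA4 and DBP2 among the 10 genes, against 8.66% of all windows.

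The translation helicases were lower in dbp2Δ as deposited. TIF1 (YKR059W, chrXI:554987-556174, + strand) and TIF2 (YJL138C, chrX:153504-154691, - strand) encode eIF4A, the helicase that unwinds the leader of mRNAs for the scanning ribosome. TIF1 was 679 FPKM for wild type and 326 FPKM for dbp2Δ, 2.08-fold lower, with a log2 ratio of -1.05. TIF2 was 49.1 FPKM against 40.1 FPKM, 1.23-fold lower. TIF1 was thus the highest of the 9 genes in wild type and the third highest in dbp2Δ, while TIF2 stood among the lowest in both strains. With coding-sum scaling TIF1 was 1.50-fold lower, short of 2-fold, and TIF2 turned to 1.13-fold higher.

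The split between TIF1 and TIF2 rests on very little sequence. Their coding sequences of 1188 bases differ at 6 bases (99.5% identity), none of which changes the encoded residue. Counted from the first base of the start codon, with the TIF1 base given before the position and the TIF2 base after it, the differences are T60C, C225T, T228C, C873T, C1170T and T1176C. Between positions 229 and 872 the genes are identical over 644 bases. The stretches with a pair of differences each are shown, with capitals at the bases that differ.
TIF1, positions 211 to 240, chrXI:555197-555226, + strand: ggtaagaccggtacCttTtccattgctgct
TIF2, positions 211 to 240, chrX:154452-154481, - strand: ggtaagaccggtacTttCtccattgctgct
TIF1, positions 1159 to 1188, chrXI:556145-556174, + strand: ccatccgacatCgctacTttgttgaactaa
TIF2, positions 1159 to 1188, chrX:153504-153533, - strand: ccatccgacatTgctacCttgttgaactaa
Of the 50-base windows of either coding sequence 84.9% occur in the other gene, and of the 35-base windows 89.0%. No window of these lengths in the other 8 genes occurs anywhere else in the genome. The sequences outside the coding regions differ, with 29 of 100 bases the same upstream and 38 of 100 downstream without gaps. How reads that match both genes were assigned is not stated in the sources at hand, so the 13.8-fold higher value of TIF1 over TIF2 in wild type, and 8.15-fold in dbp2Δ, may not reflect the RNA of each gene. Their sum, which depends less on how reads were divided between them, was 728 FPKM for wild type and 366 FPKM for dbp2Δ, 1.99-fold lower.

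**Figure D3:**
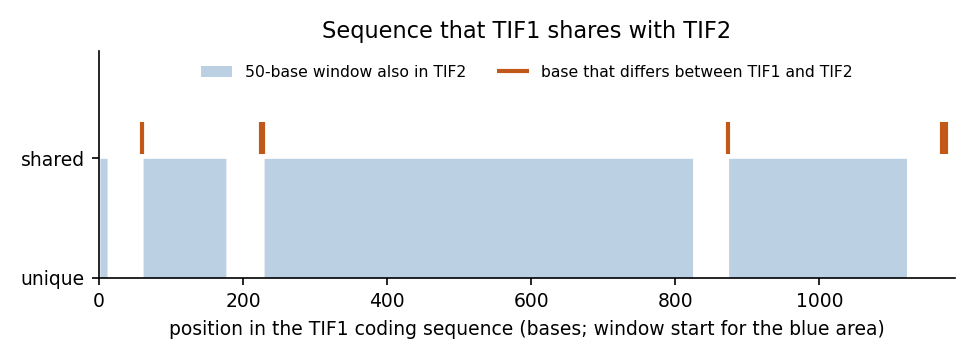
TIF1 coding sequence from the start codon (position in bases): the blue area marks starts of 50-base windows that also occur in TIF2 (84.9% of windows) and the ticks the 6 bases that differ. The windows that tell the genes apart start in a few short stretches, at a tick or within 50 bases before it.

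TIF1 and TIF2 lie beside another pair of sister genes. The glycogenin genes GLG1 and GLG2, whose products prime glycogen synthesis, are the nearest upstream genes of TIF1 (366 bp away) and TIF2 (293 bp away). GLG1 was 11.5 FPKM for wild type and 28.8 FPKM for dbp2Δ, and GLG2 was 7.09 FPKM against 19.0 FPKM. Both glycogenin genes were thus higher, 2.49-fold and 2.67-fold, next to TIF genes with lower values as deposited.

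DBP1 (YPL119C, chrXVI:324411-326264, - strand), a paralog of the translation initiation helicase gene DED1, had the lowest level of the 9 genes. It was 34.2 FPKM for wild type and 16.9 FPKM for dbp2Δ. The plain ratio was 2.03-fold lower, and the log2 ratio with the pseudocount was -0.98, just short of 2-fold. DBP1 was 1.47-fold lower with coding-sum scaling. Its neighbour MRP51, for a mitochondrial ribosomal protein, starts 363 bp away on the other strand and was also lower, at 423 FPKM against 174 FPKM.

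Counted together, 3 of the 9 helicases other than DBP2 were higher in dbp2Δ and 6 lower. Past 2-fold lay 1 upward (DBP6, against 8.86% of all genes) and 1 downward (TIF1, against 10.9%), shares near the background, and 7 lay in between. Their median log2 ratio was -0.16 beside -0.08 for all genes. With coding-sum scaling 6 were higher and 3 (TIF1, DBP1 and DBP7) lower, with a median of 0.31 beside 0.38. Past 2-fold under that scaling lay 1 upward and 0 downward, against 19.9% and 4.57% of all genes. Without TIF1 and TIF2, 1 was past 2-fold upward and 0 downward as deposited, with a median of -0.07. The helicase genes therefore had no common direction under either scaling.

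**Figure D4:**
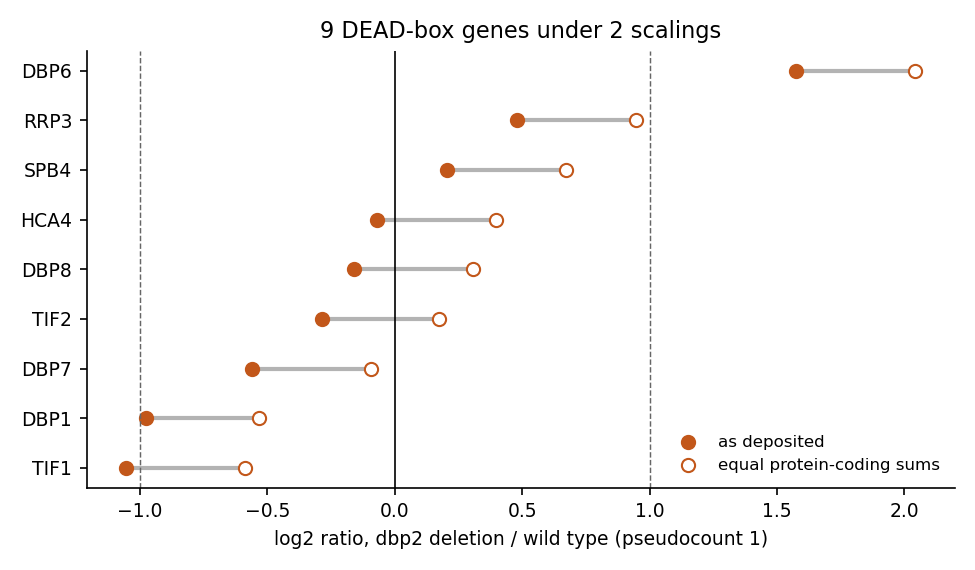
Log2 ratio of dbp2Δ over wild type for the 9 genes other than DBP2, as deposited (filled) and after coding-sum scaling (open); dashed lines mark 2-fold. DBP6 lies beyond 2-fold under both scalings (1.58 and 2.04), and HCA4, DBP8 and TIF2 change sign.

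The nearest neighbours of the 9 genes went both ways. Of 18 neighbours 15 were compared, at gaps of 123 bp or more, and 2 were past 2-fold upward (GLG1 and GLG2) and 4 downward (RSM19, MRP51, SSZ1 and KAR2), against 8.86% and 10.9% of all genes. The 4 downward genes have levels of the highest quintile of genes by mean FPKM, where 22.9% were past 2-fold downward. GLG1 and GLG2 have levels of the lowest quintile, where 14.0% were past 2-fold upward. SSZ1, a ribosome-associated chaperone gene beside RRP3, was 1968 FPKM for wild type against 899 FPKM for dbp2Δ, while RRP3 itself was higher. KAR2, the chaperone gene of the endoplasmic reticulum, lies 461 bp upstream of HCA4 and was 1216 FPKM against 586 FPKM, while HCA4 was within 1.05-fold of wild type. The neighbours that were within 2-fold were DEG1, SSF1, MTG2, NMD3, BET4, ZRG17, UTP30, YUR1 and YPL119C-A, with log2 ratios from -0.94 (MTG2) to 0.80 (YUR1). Coding-sum scaling put 4 past 2-fold upward (GLG1, GLG2, ZRG17 and YUR1) and 1 downward (RSM19), against 19.9% and 4.57% of all genes. The neighbours left out were YFL002W-A beside SPB4, at 0.17 FPKM against 0.12 FPKM, and both neighbours of DBP7, which stand on several rows. RQT4 has 2 rows that went opposite ways, 29.0 FPKM against 44.2 FPKM and 84.5 FPKM against 8.25 FPKM. RPC37 has 3 rows, all lower in dbp2Δ, with log2 ratios from -1.05 to -0.75.

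The order of levels was partly different between the strains. In wild type it ran from TIF1 (679 FPKM) through DBP8, RRP3, DBP7, HCA4, SPB4, DBP6 and TIF2 to DBP1 (34.2 FPKM), a 19.8-fold range. In dbp2Δ it ran from RRP3 (394 FPKM) through DBP8, TIF1, DBP6, DBP7, HCA4, SPB4 and TIF2 to DBP1 (16.9 FPKM), a 23.3-fold range. With no spread to judge by, neighbours in these orders cannot be called different. Ratios over all genes differed with level. From the lowest to the highest quintile of genes by mean FPKM the median log2 ratios were 0.10, 0.20, 0.0019, -0.25 and -0.48, and DBP1 and TIF2 lie in the quintile with 0.20. In the highest quintile, which holds TIF1, RRP3 and DBP8, 22.9% of genes were past 2-fold downward and 6.33% upward. DBP6 lies in the next quintile down with DBP7, HCA4 and SPB4, where 6.33% were past 2-fold upward and 10.4% downward.

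**Figure D5:**
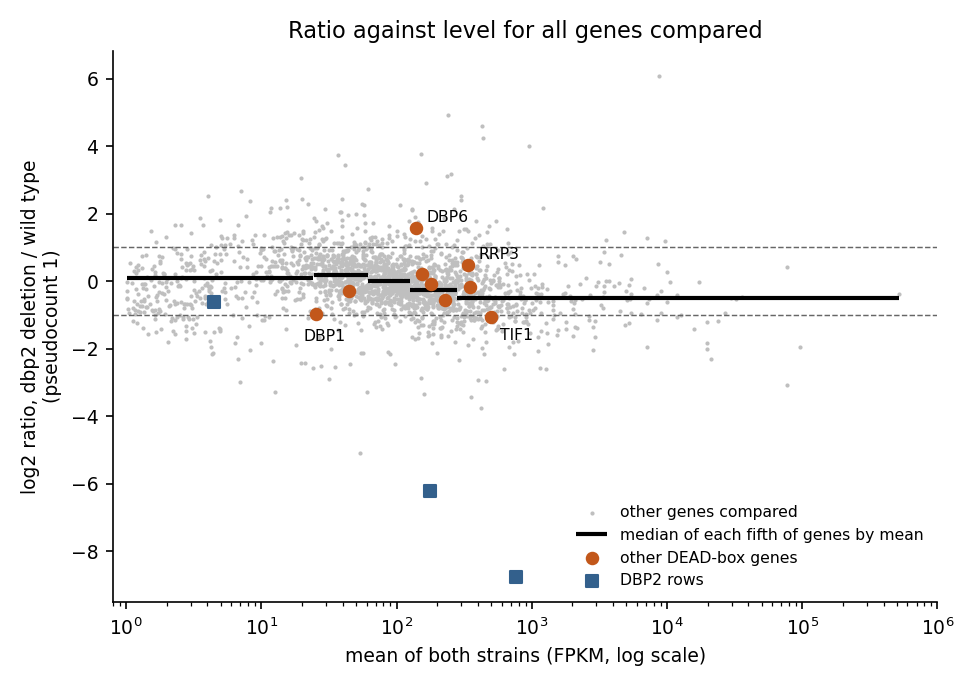
Log2 ratio of dbp2Δ over wild type against the mean FPKM of both strains (log scale) for the 2211 genes compared (grey), with the 9 other DEAD-box genes (circles), the DBP2 rows (squares) and the median of each quintile of genes by mean (black lines); dashed lines mark 2-fold. The upper DBP2 rows (-8.77 and -6.22) lie below all genes, and the other helicases lie within the cloud, with DBP6 at 1.58.

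Related genes were examined through lists of other helicases and of helicase partners. Of 16 further DEAD-box genes, 0 were in the rows used, and these were not analysed here. Of 11 DEAH-box and Ski2-like helicases 4 were compared, and 0 reached 2-fold in either direction under either scaling. The shares over all genes were 8.86% upward and 10.9% downward as deposited, and 19.9% and 4.57% with coding-sum scaling. The spliceosomal helicase genes PRP2 (64.7 FPKM and 59.7 FPKM) and PRP16 (62.5 FPKM and 56.2 FPKM) and the ribosome assembly helicase gene DHR2 (84.3 FPKM and 77.8 FPKM) were 1.08-fold to 1.11-fold lower in dbp2Δ. MTR4, the helicase that feeds RNA to the nuclear exosome, was 500.2 FPKM for wild type and 295 FPKM for dbp2Δ, 1.70-fold lower. The median of these 4 was -0.13 as deposited and 0.33 with coding-sum scaling, beside -0.08 and 0.38 for all genes. MTR4 alone stayed lower with that scaling, at a log2 ratio of -0.29 against -0.76 as deposited. It is also the only gene of the 4 with a level of the highest quintile by mean FPKM. In that quintile the median log2 ratio over all genes was -0.48 as deposited.

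Of 26 translation initiation genes 5 were compared and 0 reached 2-fold under either scaling, with 4 lower and 1 higher and a median log2 ratio of -0.73 beside -0.08 for all genes. Of all genes 8.86% and 10.9% were past 2-fold upward and downward as deposited, and 19.9% and 4.57% with coding-sum scaling. FUN12, which encodes the ribosome-joining factor eIF5B, was 603 FPKM against 338 FPKM. GCN3 and SUI3, for subunits of eIF2B and eIF2, were 620 FPKM against 367 FPKM and 720 FPKM against 434 FPKM. CDC33, for the cap-binding protein eIF4E, a partner of eIF4A in the cap-binding complex, was 1972 FPKM against 1548 FPKM. SUI2, for another subunit of eIF2, was the gene with a higher value, 170 FPKM against 234 FPKM. The 4 lower genes have levels of the highest quintile by mean FPKM. In that quintile the median log2 ratio over all genes was -0.48, and 22.9% were past 2-fold downward. Coding-sum scaling gave a median of -0.26 beside 0.38 for all genes, and CDC33 turned to a higher value.

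Of 28 partner genes 8 were compared and 0 reached 2-fold as deposited, against 8.86% of all genes upward and 10.9% downward. Among the 8, 5 were higher and 3 lower (URB1, UTP23 and PAT1), with a median log2 ratio of 0.23 beside -0.08 for all genes. Coding-sum scaling turned those 3 to higher values, which made all 8 higher, with a median of 0.69 beside 0.38 for all genes. NOP8, which acts with DBP6 in large-subunit assembly, was 60.4 FPKM for wild type and 102 FPKM for dbp2Δ, 1.69-fold higher. MEX67, the mRNA export receptor whose loading involves Dbp2, was 66.9 FPKM against 111 FPKM, and CCR4, a deadenylase subunit, was 44.4 FPKM against 70.2 FPKM. These 3 genes reached 2-fold with coding-sum scaling, at log2 ratios of 1.21, 1.19 and 1.11, where 19.9% of all genes were past 2-fold upward. The URB1 and URB2 genes, whose products also associate with Dbp6, were listed at 124 FPKM against 108 FPKM and at 45.1 FPKM against 48.8 FPKM. Their log2 ratios were -0.20 and 0.11 as deposited and 0.27 and 0.57 with coding-sum scaling. ESF2, for the Dbp8 cofactor, was 1.28-fold higher, at 101 FPKM against 129 FPKM.

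No gene compared had a pattern near that of DBP2, whose drop in dbp2Δ was fixed in advance by the deletion. The nearest to its highest row on the plane of both log2 levels were PHO12 at a distance of 3.86 (105.1 FPKM and 2.13 FPKM), ANB1 at 3.86 (292 FPKM and 27.8 FPKM) and SPL2 at 4.16 (111 FPKM and 10.6 FPKM). PHO12 encodes an acid phosphatase, ANB1 a form of eIF5A and SPL2 a regulator of phosphate transport. Their values were 49.3-fold, 10.5-fold and 10.4-fold lower in dbp2Δ, against 611-fold for DBP2, the gene deleted there.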

How the data were processed

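The deposited values were taken as FPKM, per the submitters' processing notes, which name Cuffdiff 2.1.1 and the build sacCer3, and because they are fractional and total 5210210 for wild type and 1724410 for dbp2Δ, above what CPM or TPM allow. The aligner, the annotation, the use of strand, the scaling between strains and the pooling of the 2 listed replicates are not stated there. Depth is unknown without counts, so no counting interval or floor is given.

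The table of each strain holds 3146 rows. Names on several rows (306 names, 643 rows) and 7 rows naming several genes were left out of counts over genes, and the DBP2 rows were described apart. Genes above 0 in both strains with a mean of at least 1 FPKM were compared (2211), with a pseudocount of 1 and a limit of 2-fold. With 1 value a strain no test was run. Genes named are the members, list genes past 2-fold with up to 4 others a list, the nearest annotated neighbours and the 3 nearest genes by distance of log2 values to DBP2 and DBP6. CDC33, URB1, URB2, UTP23, PAT1 and LEU2 were added after their values were seen, as was the comparison of rows across names. Coding-sum scaling used the coding genes of single rows with no 0. The members and lists were chosen with earlier results of these data known. Sequences and coordinates come from RefSeq R64. The fold calculation was tested on simulated data. Python 3.11.15, numpy 2.4.6, pandas 2.3.3 and matplotlib 3.10.9 were used.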

Additional observations from a re-analysis of the deposited data

How the results depend on the processing

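No paired analysis was possible because each strain has 1 deposited value, and no replicate could be left out for the same reason. The count of helicases other than DBP2 at least 2-fold higher was 1 (DBP6) under every setting tried. The count at least 2-fold lower was 1 as deposited, 2 with a pseudocount of 0.1, where DBP1 joined TIF1, 0 with coding-sum scaling and 0 without TIF1 and TIF2, a setting chosen after seeing the data. The median log2 ratio of the 9 genes went from -0.16 to 0.31 with coding-sum scaling. That scaling also moved the counts over all genes from 196 higher and 241 lower to 441 and 101, and the partner genes at least 2-fold higher from 0 to 3. A scaling to equal medians multiplied the dbp2Δ values by 0.995 and changed little. It gave the 9 genes a median of -0.17, with 1 past 2-fold upward and 1 downward. Over all genes it gave 193 higher and 244 lower, and none of the 9 genes changed sign. The count of all genes at least 2-fold higher was 111 with a pseudocount of 10 and 295 with all rows of repeated names. Of 72 values of single helicases under the planned settings, 67 kept their direction and their side of 2-fold. Another 3 changed sign (DBP8, HCA4 and TIF2, all with coding-sum scaling), 1 fell short of 2-fold (TIF1, same setting) and 1 passed it. Settings of the low-value filter or of repeated names could not move these values. Each of the 9 genes stands on 1 row and passed every filter tried. The values that were kept therefore speak only for the pseudocount and scaling settings. The log2 ratio of the highest DBP2 row, or of the DBP2 rows added up, was between -9.20 and -6.95 under the settings tried. Unknown depth limits all values, most of all those of the low DBP2 rows and DBP1.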
